A study of Rattus norvegicus with 24 samples.

Results

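Cytochrome P450 genes were followed in primary rat hepatocytes kept in collagen gel. A probe set entered when its only platform symbol was Cyp followed by a digit. The bile acid and sterol genes Cyp7a1, Cyp7b1, Cyp8b1, Cyp27a1, Cyp17a1 and Cyp51 were left out, and where a gene had several probe sets the one with the highest mean over all arrays stood for it. This gave 52 of the 14217 genes measured, taken from 59 probe sets. They comprised 3 genes of family 1, 25 of family 2, 4 of family 3, 10 of family 4 and 10 others. Another 7 P450 probe sets carried several symbols and were not used. Cyp2b1, Cyp24a1 and Cyp2r1 had no probe set of their own and are not analysed here.

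The cells lay on 1 gel layer (monolayer) or were covered by a second one added a day after seeding (sandwich). The labels call the monolayer the unstable control and the sandwich the stable one. RNA came from days 1, 2, 3 and 8 counted from that second layer, with 3 arrays per culture and day and 24 in all. Every group received the same medium, DMEM with fetal bovine serum, penicillin, streptomycin, epidermal growth factor, insulin, glucagon and hydrocortisone, replaced daily. Strain, sex, age and number of the rats are not given in the labels. Neither do they say whether replicates were separate animals or cultures, so p-values measure the spread between these arrays, which may be technical. Day 1 is the earliest time, and uncultured cells are not among the samples used here.

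P450 enzymes are heme proteins, most of them in the endoplasmic reticulum, that oxidise drugs, steroids, fatty acids and vitamins. Microsomal forms take electrons from the reductase encoded by Por, helped by cytochrome b5. Ligand-activated factors switch many of them on: AHR acts on family 1, the receptors CAR and PXR on families 2 and 3, and PPAR-alpha on the Cyp4a genes. Hepatocytes in culture are known to lose P450 expression.

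Levels are log2 probe set values, and differences are log2 differences ± the standard error (SE) of a limma model. A gene was called at a Benjamini-Hochberg adjusted p under 0.05 over all probe sets. Signals of different probe sets cannot be set against each other, so each gene is compared with itself. The table holds no detection calls. The median of all values, 5.62, served as a mark for dim signals, and folds are given only where both group means reach it. Of the 52 genes, 34 lay above this mark in all groups, and 12 lay below it in every group: Cyp2a2, Cyp2a3, Cyp2b12, Cyp2b21, Cyp2c13, Cyp2g1, Cyp3a2, Cyp11a1, Cyp11b1, Cyp19a1, Cyp21a1 and Cyp39a1.

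Correlations between arrays of a group were 0.993 to 0.997 across probe sets, and no array stood apart by them. A sign of RNA quality, how far the beta-actin signal at the 3' end exceeds that at the 5' end (log2), was larger in the sandwich at days 2, 3 and 8, without overlap. It was 0.75 to 0.81 in the monolayer against 0.90 to 0.97 at day 2, 0.80 to 0.83 against 0.96 to 1.16 at day 3 and 0.78 to 0.88 against 0.90 to 1.21 at day 8. Its part in the P450 differences was not tested. Of 8 hepatocyte markers, 7 were measured and all lay above 5.62 in every group. The bile duct markers Krt19 and Krt7 rose in the monolayer by day 8 (3.77 ± 0.11 and 3.52 ± 0.15). Of 5 such markers measured, 3 were called higher there and 2 were not called, against 17.5% of all genes higher. The collagen gene Col1a2 rose in both cultures (4.0 ± 0.28 and 2.90 ± 0.28). In them 5 and 4 of 11 stellate cell and fibroblast markers were called higher (17.5% and 14.3% of all genes). In bulk RNA, fewer hepatocytes and less P450 RNA per hepatocyte cannot be told apart.

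The promoter sequences of 4 genes are shown first, chosen after their values were seen. Cyp3a23-3a1 and Cyp3a9 differed between the cultures in opposite directions at day 3, and Cyp1a2 and Cyp2e1 fell over the culture. Each run is the 250 bases before the start site, 5′ to 3′ on the gene's strand, from RefSeq on build GRCr8. They lie at chr12:14398804-14399053 (Cyp3a23-3a1, minus strand), chr12:21960161-21960410 (Cyp3a9, minus strand), chr8:66978150-66978399 (Cyp1a2, minus strand) and chr1:205269717-205269966 (Cyp2e1, plus strand). Capitals mark every match to the motifs searched.
Cyp3a23-3a1: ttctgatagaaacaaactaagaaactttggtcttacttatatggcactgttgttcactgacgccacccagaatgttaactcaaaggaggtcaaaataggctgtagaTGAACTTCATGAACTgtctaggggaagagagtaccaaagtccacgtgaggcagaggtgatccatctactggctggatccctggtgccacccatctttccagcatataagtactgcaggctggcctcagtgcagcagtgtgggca
Cyp3a9: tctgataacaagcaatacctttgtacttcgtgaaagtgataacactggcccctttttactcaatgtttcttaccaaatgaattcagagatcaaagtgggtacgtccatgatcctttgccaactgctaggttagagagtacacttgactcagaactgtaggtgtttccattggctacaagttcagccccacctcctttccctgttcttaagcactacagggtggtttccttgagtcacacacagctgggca
Cyp1a2: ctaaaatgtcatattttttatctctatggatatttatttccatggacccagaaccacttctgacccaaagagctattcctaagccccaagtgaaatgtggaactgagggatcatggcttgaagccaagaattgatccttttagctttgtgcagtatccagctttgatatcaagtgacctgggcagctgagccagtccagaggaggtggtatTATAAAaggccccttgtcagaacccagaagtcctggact
Cyp2e1: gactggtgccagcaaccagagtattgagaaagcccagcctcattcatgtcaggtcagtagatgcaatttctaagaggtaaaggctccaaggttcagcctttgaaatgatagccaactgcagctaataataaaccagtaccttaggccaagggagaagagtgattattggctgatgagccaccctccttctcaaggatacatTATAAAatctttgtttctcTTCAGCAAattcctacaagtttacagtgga
In Cyp3a23-3a1 the capitals, read on the other strand, are AGTTCA repeated in the same direction after 3 bases, a type of element that PXR is known to bind. In Cyp1a2 they are the TATA box TATAAA. In Cyp2e1 they are a TATAAA and, after it, a C/EBP-type TTGCNNAA on the other strand. Cyp3a9 held none of the motifs.

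A window of 250 bases before to 50 after the start site was given for 43 of the 52 genes, and 33469 windows were searched on both strands. The AGTTCA repeat was in 2 of all windows, those of Cyp3a2 and Cyp3a23-3a1. This motif was added after the Cyp3a23-3a1 sequence had been read, so the count is a description only. TTGCNNAA was in 12 (27.9%) against 10.6% of all windows, TATAAA in 13 (30.2%) against 14.2% of all windows, and GCGTG, the core of the element that AHR binds, in 11 (25.6%) against 29.7% of all windows. AGGTCA repeated after 1 base, the type of element PPAR-alpha binds, was in none of the 43 and in 0.0538% of all. Each of the 43 genes entered with 1 window, while the shares of all windows counted every window given. Whether some genes gave several windows was not checked. Matches of different motifs did not overlap in the 43 genes.

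Sandwich and monolayer P450s differed in 1 of 52 genes at day 1 and in 29 at day 8. At day 1 Cyp4b1 alone was called, lower in the sandwich (2.57% of all genes were called, 0.823% higher and 1.75% lower). Day 2 gave 8 genes higher and 2 lower in the sandwich, against 8.67% of all genes (2.83% higher and 5.85% lower). Day 3 gave 17 higher and 4 lower, against 22.7% (10.9% higher and 11.8% lower). Day 8 gave 26 higher and 3 lower, against 36.3% of all genes (15.6% higher and 20.7% lower). The median difference of the 52 genes was 0.04, 0.11, 0.15 and 0.29 at days 1, 2, 3 and 8, while that of all genes lay between -0.01 and 0.01. At day 8, 14 of the 52 genes were called higher by at least 1 log2 unit in the sandwich and none lower, against 3.257% and 2.806% of all genes. Arrays of the cultures did not overlap for 27 of the 52 genes at day 3 (5263 of all 14217) and 30 at day 8 (6532). Lack of overlap helped choose many genes named below, so for them it is a description and no further support.

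The early counts moved when single arrays were left out. Cyp4b1 at day 1 (-0.61 ± 0.12, limma adjusted p = 0.006698) lost its call without monolayer replicate 3 (adjusted p of 0.05724) and without sandwich replicate 1 (0.05862). The day 2 count of 10 became 5 without monolayer replicate 3, and 6 without sandwich replicate 1 or in a fit of the day 2 groups alone. Some alternative setting ended 7 of the 10 calls at day 2, 4 of 21 at day 3 and 9 of 29 at day 8. Those at day 8 included Cyp1b1, Cyp20a1 and Cyp2u1, the genes called lower in the sandwich.

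**Figure D1:**
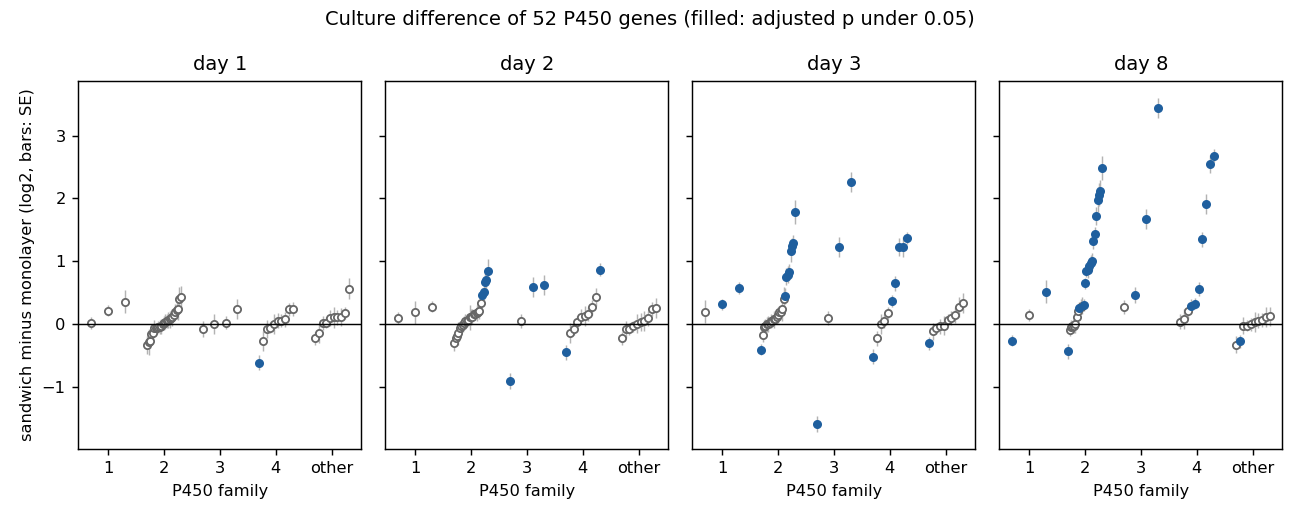
Sandwich minus monolayer difference (log2, vertical axis) of each of the 52 P450 genes at days 1, 2, 3 and 8, by family (horizontal axis), with SE bars; filled points passed an adjusted p under 0.05. Filled points above 0 number 0 at day 1 and 26 at day 8, where all lie in families 1 to 4 and none among the 10 others.

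By family, day 8 showed 15 of 25 higher and 1 lower in family 2, and 3 of 4 higher and 0 lower in family 3. Family 4 had 7 of 10 higher and 0 lower, and family 1 had 1 of 3 higher and 1 lower. The other P450s had 0 of 10 higher and 1 lower. Of all genes, 15.6% were called higher and 20.7% lower that day. Group means were highest in the day 8 sandwich for 17 of the 52 genes, against 15.41% of all genes, and lowest in the day 8 monolayer for 21, against 24.44%. Genes higher in the sandwich at both day 3 and day 8 numbered 14 (7.871% of all genes), and 3 genes were called in opposite directions on different days: Cyp1b1, Cyp2c22 and Cyp3a9 (0.9285%). At no day was a call made for 19 genes (57.83%).

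**Figure D2:**
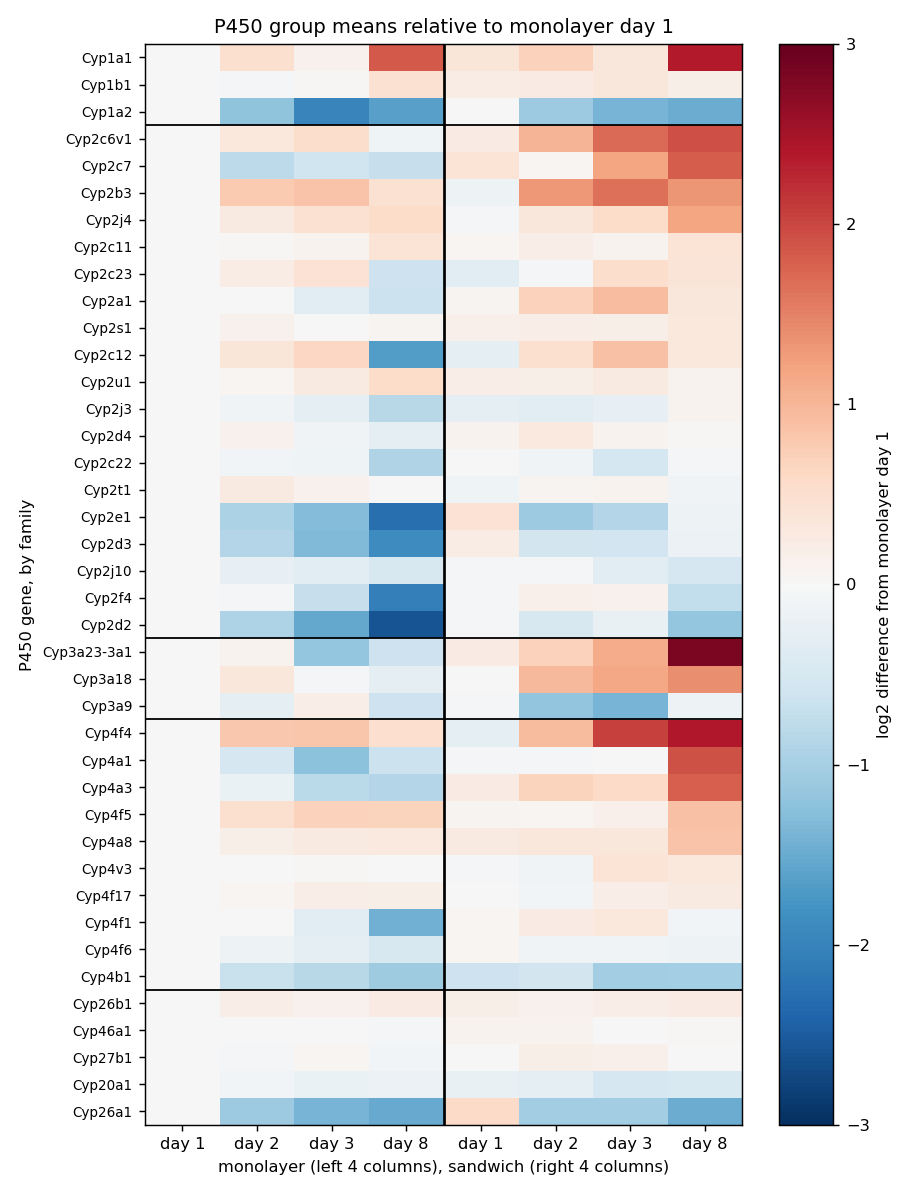
Group means of the 40 P450 genes with at least 1 group mean above 5.62, as log2 difference from monolayer day 1 (colour; red higher, blue lower), with 4 monolayer columns on the left and 4 sandwich columns on the right, rows ordered by family and then by the day 8 sandwich. Cyp3a23-3a1 is red in the day 8 sandwich, Cyp2d2 and Cyp2e1 are blue in the day 8 monolayer and paler in the day 8 sandwich, and Cyp1a1 is red in both cultures at day 8.

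Family 3 holds main drug- and steroid-oxidising enzymes of the liver. Cyp3a23-3a1, the form inducible by steroids and drugs, read 9.81, 9.77 and 9.67 in the monolayer at day 1 and 9.13, 9.30 and 9.00 at day 8. In the sandwich it read 10.16, 10.04 and 9.80 at day 1 and 12.78, 12.49 and 12.49 at day 8. The 3 day 8 sandwich arrays lay above the arrays of every other group. The cultures differed by 3.44 ± 0.16 at day 8 (10.9-fold, limma adjusted p = 1.073e-14), after 2.26 ± 0.16 at day 3. From day 1 to day 8 the gene rose by 2.58 ± 0.16 in the sandwich and changed by -0.61 ± 0.16 in the monolayer, both past the threshold.

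Cyp3a9, another rat member of the subfamily, was first lower in the sandwich. At day 3 it read 7.82, 7.92 and 8.02 in the monolayer and 6.22, 6.53 and 6.26 in the sandwich, with no overlap (-1.58 ± 0.13, adjusted p = 2.108e-09). At day 2 the difference was -0.90 ± 0.13. By day 8 the sandwich read 7.72, 7.73 and 7.31 and the monolayer 7.0, 7.43 and 6.90, and the arrays overlapped. The day 8 call of 0.47 ± 0.13 (adjusted p = 0.008884) did not survive leaving out monolayer replicate 3 (0.37, adjusted p = 0.07195), sandwich replicate 1 (0.05066) or sandwich replicate 2 (0.05183). In the sandwich, day 8 differed from day 1 by -0.07 ± 0.13, which did not pass, while day 3 lay below day 1 (-1.32 ± 0.13).

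Cyp3a18, a testosterone hydroxylase, stayed below 5.62 in the monolayer, between 4.21 and 5.35. The sandwich read 4.92, 4.78 and 5.09 at day 1 and 6.29, 6.43 and 6.24 at day 8, when all its arrays lay above the monolayer (1.68 ± 0.16). Cyp3a2, the form known from male rats, read between 3.29 and 4.02 on all arrays, below the mark for dim signals, and its day 8 difference of 0.28 ± 0.11 did not pass (adjusted p = 0.07072).

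**Figure D3:**
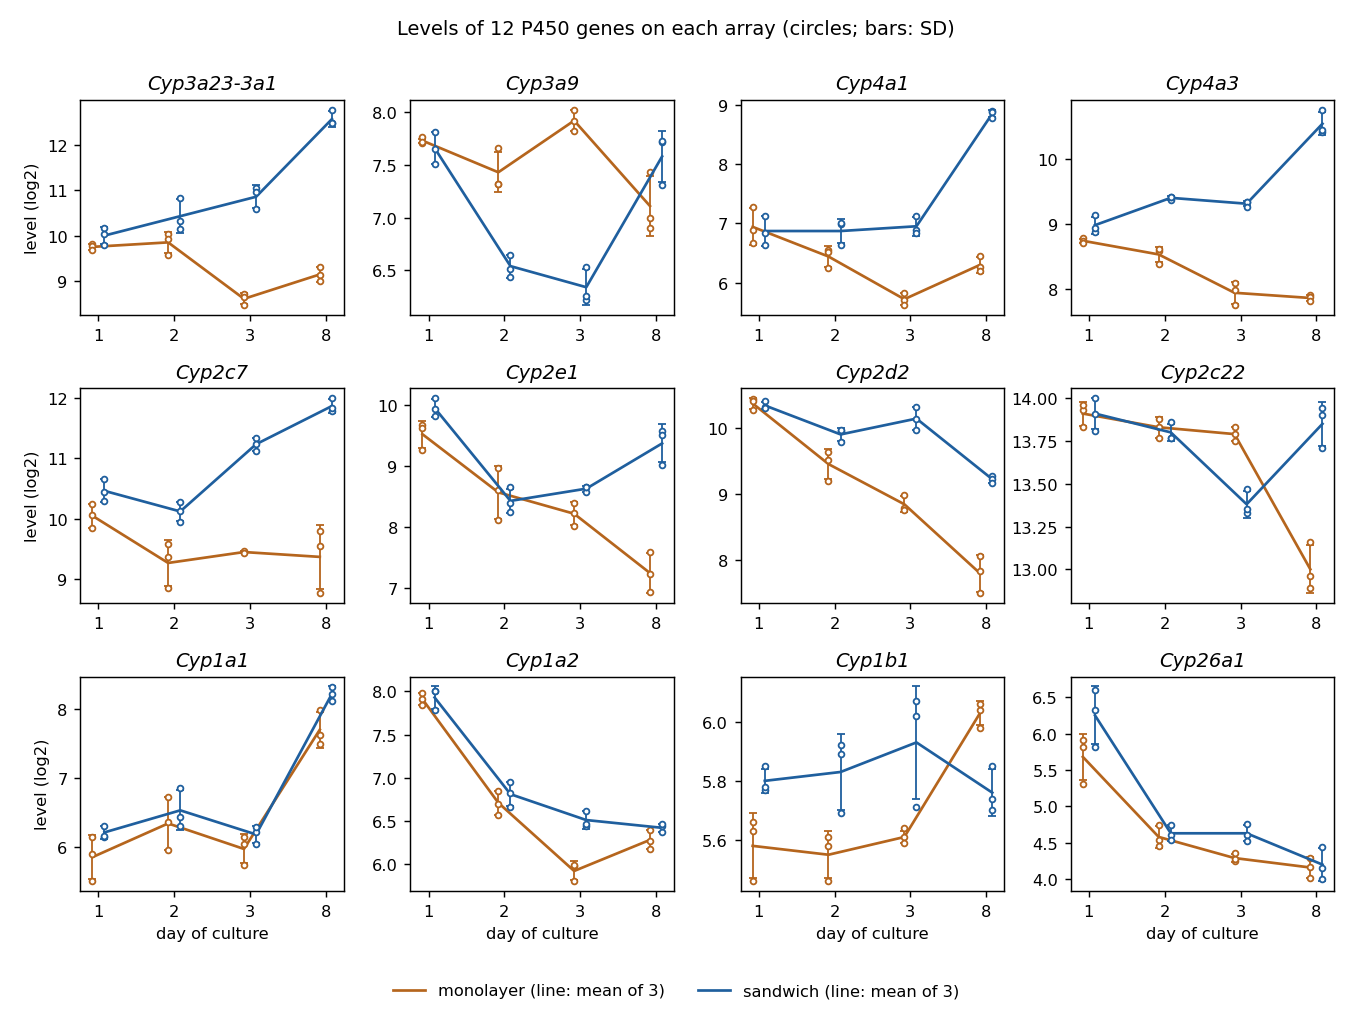
Levels (log2, vertical axis) of 12 P450 genes on each array by day of culture (horizontal axis, days not to scale), with circles for arrays, lines for means of 3 and bars for SD, monolayer in brown and sandwich in blue. Cyp3a23-3a1, Cyp4a1, Cyp4a3 and Cyp2c7 are far apart at day 8, Cyp3a9 and Cyp2c22 cross between day 3 and day 8, and the cultures end near each other in Cyp1a2 and Cyp26a1.

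Family 4 contains fatty acid omega-hydroxylases, and its Cyp4a genes are textbook targets of PPAR-alpha. All 3 Cyp4a genes were higher in the day 8 sandwich (15.6% of all genes). Cyp4a3 read 7.90, 7.87 and 7.81 in the monolayer and 10.41, 10.75 and 10.45 in the sandwich, 2.68 ± 0.10 apart (6.42-fold, adjusted p = 2.595e-16). Cyp4a1 read 6.45, 6.26 and 6.20 in the monolayer and 8.89, 8.88 and 8.78 in the sandwich, 2.55 ± 0.14 apart (5.85-fold, adjusted p = 3.855e-13). Neither pair of groups overlapped. Cyp4a1 in the sandwich had changed by 0.08 ± 0.14 from day 1 to day 3, which did not pass, and by 1.98 ± 0.14 to day 8, while the monolayer was down by day 3 (-1.22 ± 0.14). Cyp4a8 differed by 0.56 at day 8 on the probe set used and by 1.27 on its other one.

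The Cyp4f genes act on leukotrienes and long-chain fatty acids. Cyp4f4 read 6.55, 6.77 and 6.07 in the day 8 monolayer and 8.32, 8.66 and 8.14 in the sandwich, with no overlap (1.91 ± 0.16). It had risen since day 1 by 2.68 ± 0.16 in the sandwich and 0.51 ± 0.16 in the monolayer, the latter a call that 4 of 15 alternatives ended (without monolayer day 8 replicate 2, adjusted p = 0.1309).

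Cyp4f1 went from 10.78, 10.80 and 10.81 to 9.48, 9.57 and 9.01 in the monolayer and ended at 10.71, 10.78 and 10.63 in the sandwich. The monolayer changed by -1.44 ± 0.12, and the day 8 cultures were 1.35 ± 0.12 apart, with no overlap. Cyp4f5 was lower in the sandwich at day 2 (-0.44 ± 0.12, ended by 5 of 15 alternatives) and day 3 (-0.51 ± 0.12), and at day 8 its difference of 0.21 ± 0.12 did not pass. Cyp4b1, a form better known from lung, fell in both cultures (-1.07 ± 0.12 and -0.42 ± 0.12, the second ended by 2 of 15 alternatives), and the day 8 cultures differed by 0.04 (95% interval -0.21 to 0.30).

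Family 2 holds enzymes for drugs, solvents and arachidonic acid. Of its Cyp2c genes, 6 of 7 were higher in the day 8 sandwich (15.6% of all genes), with a median difference of 1.00. One of the 6 was Cyp2c13, dim in every group, whose call 8 of 13 alternatives ended. Cyp2c7, a retinoid hydroxylase, read 9.55, 9.80 and 8.77 in the monolayer and 11.78, 11.99 and 11.82 in the sandwich, 2.49 ± 0.19 apart (5.62-fold, adjusted p = 1.129e-10). Cyp2c6v1 read 11.68, 11.52 and 10.68 and 13.46, 13.36 and 13.24, a difference of 2.06 ± 0.18. Cyp2c12, the steroid sulfate hydroxylase typical of female rats, read 11.04, 11.06 and 9.82 and 12.72, 12.57 and 12.58, a difference of 1.98 ± 0.20. In all 3 genes monolayer replicate 3 was the lowest array, and no sandwich array overlapped a monolayer array.

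Monolayer day 8 replicate 3 was the lowest of its group for 23 of the 40 P450 genes above the dim mark (57.5%) and for 28.84% of all genes, a count made after the values were seen. Its hepatocyte marker mean was 12.88, against 13.08 and 13.13 on the other arrays of the group, and its part in the P450 differences was not tested. The day 8 culture count of 29 was 24 without it, the same as without monolayer replicate 2 or sandwich replicate 1, and 25 to 27 without the other arrays. The monolayer change of Cyp2c7 (-0.68 ± 0.19) lost its call without it (-0.38, adjusted p = 0.09102).

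Cyp2c22 crossed between days. At day 3 it read 13.33, 13.47 and 13.35 in the sandwich and 13.75, 13.79 and 13.83 in the monolayer (-0.40 ± 0.09), and at day 8 13.71, 13.94 and 13.90 and 12.89, 13.16 and 12.96 (0.85 ± 0.09). The groups did not overlap on either day. Cyp2c11, the form typical of male rats, read between 5.87 and 6.67 on all arrays, with a day 8 difference of -0.00 (95% interval -0.27 to 0.27).

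Of the Cyp2d genes, which oxidise many amine drugs, Cyp2d2 and Cyp2d3 fell in both cultures. Cyp2d2 read 10.44, 10.41 and 10.28 in the monolayer at day 1 and 7.84, 8.06 and 7.50 at day 8, a change of -2.57 ± 0.12 (5.96-fold lower). The sandwich went from 10.41, 10.32 and 10.31 to 9.28, 9.23 and 9.18, a change of -1.11 ± 0.12. In each culture the day 8 arrays lay below all day 1 arrays. Cyp2d3 changed by -1.89 ± 0.14 in the monolayer and -0.40 ± 0.14 in the sandwich, the latter a call that 5 of 15 alternatives ended. All 3 Cyp2d genes were higher in the day 8 sandwich (15.6% of all genes), by 0.31 to 1.72. The call of Cyp2d4 (0.31) ended without monolayer replicate 2 or sandwich replicate 1 (adjusted p up to 0.05608), and its other probe set did not pass (0.42, adjusted p = 0.06844).

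Cyp2e1, the ethanol-inducible form, fell early in both cultures. The monolayer read 9.67, 9.63 and 9.27 at day 1, 8.02, 8.40 and 8.24 at day 3 and 7.24, 7.59 and 6.94 at day 8. The sandwich read 10.11, 9.82 and 9.93, 8.57, 8.66 and 8.65 and 9.02, 9.58 and 9.51 on those days. All monolayer arrays were lower at day 8 than at day 3, and all sandwich arrays were higher. The cultures differed by 2.12 ± 0.18 at day 8 (4.34-fold, adjusted p = 1.464e-09), while differences of 0.43, -0.14 and 0.41 at days 1, 2 and 3 did not pass. Compared with day 1 the day 8 change was -2.27 ± 0.18 in the monolayer and -0.58 ± 0.18 in the sandwich. The sandwich call ended without its day 1 replicate 1 (adjusted p = 0.091) or day 8 replicate 1 (0.1514).

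Further genes of family 2 are given more briefly. Cyp2f4, which activates naphthalene in lung, changed by -2.06 ± 0.13 in the monolayer and differed by 1.32 ± 0.13 at day 8. Cyp2a1, a testosterone hydroxylase, was higher in the sandwich at days 2, 3 and 8 (0.68 ± 0.13, 1.24 ± 0.13 and 0.98 ± 0.13). Cyp2b3 rose in both cultures by day 8, by 0.46 ± 0.13 and 1.48 ± 0.13, the first a call that ended without monolayer day 8 replicate 2 (0.32, adjusted p = 0.07048). The arachidonic acid epoxygenases Cyp2j3 and Cyp2j4 were called at day 8 (0.93 ± 0.11 and 0.65 ± 0.09) and at no earlier day; a second, dimmer Cyp2j3 probe set gave 0.24 (adjusted p = 0.1562). Cyp2u1, a fatty acid hydroxylase, was the gene of the family lower in the day 8 sandwich (-0.43 ± 0.12, adjusted p = 0.01056), a call that ended without monolayer replicate 3 (0.05007) or sandwich replicate 2 (0.08479).

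Family 1, the AHR targets that oxidise polycyclic aromatics, had Cyp1a1 rising and Cyp1a2 falling in both cultures. Cyp1a1 read 5.50, 6.15 and 5.89 in the monolayer at day 1 and 7.49, 7.62 and 7.99 at day 8. In the sandwich it read 6.31, 6.15 and 6.16 at day 1 and 8.22, 8.11 and 8.32 at day 8. Each culture's day 8 arrays lay above its day 1 arrays, with rises of 1.85 ± 0.18 and 2.01 ± 0.18, whose difference of 0.16 (95% interval -0.36 to 0.67) did not pass. The day 8 culture difference of 0.52 ± 0.18 (adjusted p = 0.03081) ended in 4 of 15 alternatives, those without monolayer replicate 1 or 2 or sandwich replicate 1 or 3, with an adjusted p of 0.06872 to 0.1423.

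Cyp1a2, the caffeine demethylase of liver, fell in both. The monolayer went from 7.98, 7.91 and 7.84 to 6.27, 6.17 and 6.39 and the sandwich from 8.01, 7.78 and 8.01 to 6.37, 6.44 and 6.46. The changes were -1.63 ± 0.10 and -1.51 ± 0.10, and the day 8 culture difference of 0.15 (95% interval -0.05 to 0.35) did not pass. At day 3 the sandwich was higher (0.58 ± 0.10). Cyp1b1 read between 5.46 and 6.07, close to the dim mark. It was called higher in the sandwich at day 3 (0.32 ± 0.09) and lower at day 8 (-0.26 ± 0.09), calls that 5 of 15 and 8 of 15 alternatives ended.

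Among the other P450s, Cyp26a1, which breaks down retinoic acid, was the gene whose change over time passed in both cultures. It read 5.91, 5.31 and 5.81 in the monolayer and 6.60, 5.81 and 6.33 in the sandwich at day 1, and at day 8 4.29, 4.17 and 4.02 in the monolayer and 4.0, 4.44 and 4.15 in the sandwich, below the dim mark. Day 8 arrays lay below all day 1 arrays, with changes of -1.52 ± 0.16 and -2.05 ± 0.16, and the day 8 culture difference was 0.04 (95% interval -0.29 to 0.37). Cyp20a1, a P450 of unknown substrate, was lower in the sandwich at days 3 and 8 (-0.30 ± 0.10 and -0.27 ± 0.10), each call ended by 6 of 15 alternatives. The cholesterol hydroxylase Cyp46a1 read between 6.60 and 7.28 and the vitamin D activating Cyp27b1 between 5.25 and 5.89, and neither passed in a culture comparison. Cyp11a1, which starts steroid synthesis in glands, lay below the dim mark, and its monolayer rise of 0.51 ± 0.14 ended without monolayer day 1 replicate 1 or 2 (adjusted p = 0.05044 and 0.06145).

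The remaining genes are given by their change from day 1 to day 8. Cyp2c23, an arachidonic acid epoxygenase, changed by -0.62 ± 0.14 in the monolayer and 0.72 ± 0.14 in the sandwich, and the day 8 cultures were 1.00 ± 0.14 apart. Cyp2j10 changed by -0.48 ± 0.08 in the monolayer and -0.45 ± 0.08 in the sandwich. The fatty acid hydroxylase Cyp4v3 changed by -0.01 ± 0.09 in the monolayer and 0.37 ± 0.09 in the sandwich, the second of which passed, and Cyp4f6 by -0.47 ± 0.10 in the monolayer and -0.23 ± 0.10 in the sandwich, the first of which passed. Cyp2s1, Cyp2t1, Cyp4f17 and Cyp26b1 passed in neither culture, with day 8 culture differences of 0.22, -0.09, 0.08 and -0.00. Of the 12 dim genes, Cyp2a2 was called at day 3 (0.45 ± 0.13), Cyp2c13 at day 8 (0.26 ± 0.09), and Cyp2g1 for its monolayer change to day 8 (-0.33 ± 0.12). These calls ended in 3 of 14, 8 of 13 and 5 of 14 alternatives, with adjusted p up to 0.1262, 0.1443 and 0.3231.

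From day 1 to day 8 the monolayer had 22 lower and 10 higher genes (38.7% of all genes called, 21.2% lower and 17.5% higher), and the sandwich 8 lower and 16 higher (31.7% called, 17.5% lower and 14.3% higher). At day 2 the counts were 8 lower and 3 higher in the monolayer (6.98% called, 3.42% lower and 3.56% higher) and 6 lower and 8 higher in the sandwich (8.15% called, 3.97% lower and 4.17% higher). At day 3 they were 14 lower and 7 higher in the monolayer (26.1% called, 15.1% lower and 11.1% higher) and 8 lower and 12 higher in the sandwich (19.8% called, 9.62% lower and 10.2% higher). Day 8 and day 1 arrays did not overlap for 32 of the 52 genes in the monolayer (7061 of all 14217) and 30 in the sandwich (5996). Comparisons within a culture share its day 1 arrays.

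Grouped by both day 8 calls, 8 genes fell in both cultures: Cyp1a2, Cyp2d2, Cyp2d3, Cyp2e1, Cyp2f4, Cyp2j10, Cyp4b1 and Cyp26a1 (10.42% of all genes). Another 7 fell in the monolayer and rose in the sandwich: Cyp2c7, Cyp2c12, Cyp2c23, Cyp2j3, Cyp3a23-3a1, Cyp4a1 and Cyp4a3 (2.089%). In both cultures 6 rose: Cyp1a1, Cyp2b3, Cyp2j4, Cyp4a8, Cyp4f4 and Cyp4f5 (7.217%). Of the rest, 7 were called lower in the monolayer alone (8.68%), 4 higher in the monolayer alone (9.503%), 3 higher in the sandwich alone (4.966%), and 17 in neither (50.08%). The grouping was made after the values were seen. Among its calls, 8 of 32 in the monolayer and 5 of 24 in the sandwich ended under some alternative. In the monolayer these were Cyp2b3, Cyp2c7, Cyp2c11, Cyp2d4, Cyp2g1, Cyp4a8, Cyp4f4 and Cyp11a1, and in the sandwich Cyp2c12, Cyp2d3, Cyp2e1, Cyp2j3 and Cyp4b1.

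The change from day 1 to day 8 was compared between the cultures directly. It was more positive in the sandwich for 20 of the 52 genes and less so for 2, Cyp1b1 and Cyp2u1, where 21.8% of all genes were called (11.3% higher and 10.5% lower). The widest differences were 3.19 ± 0.22 for Cyp3a23-3a1, 2.62 ± 0.20 for Cyp4a1 and 2.44 ± 0.14 for Cyp4a3. For Cyp3a9 the difference was 0.55 ± 0.19 and did not pass (adjusted p = 0.05176). A moderated F test of the culture by day interaction passed for 25 genes (21.2% of all genes).

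**Figure D4:**
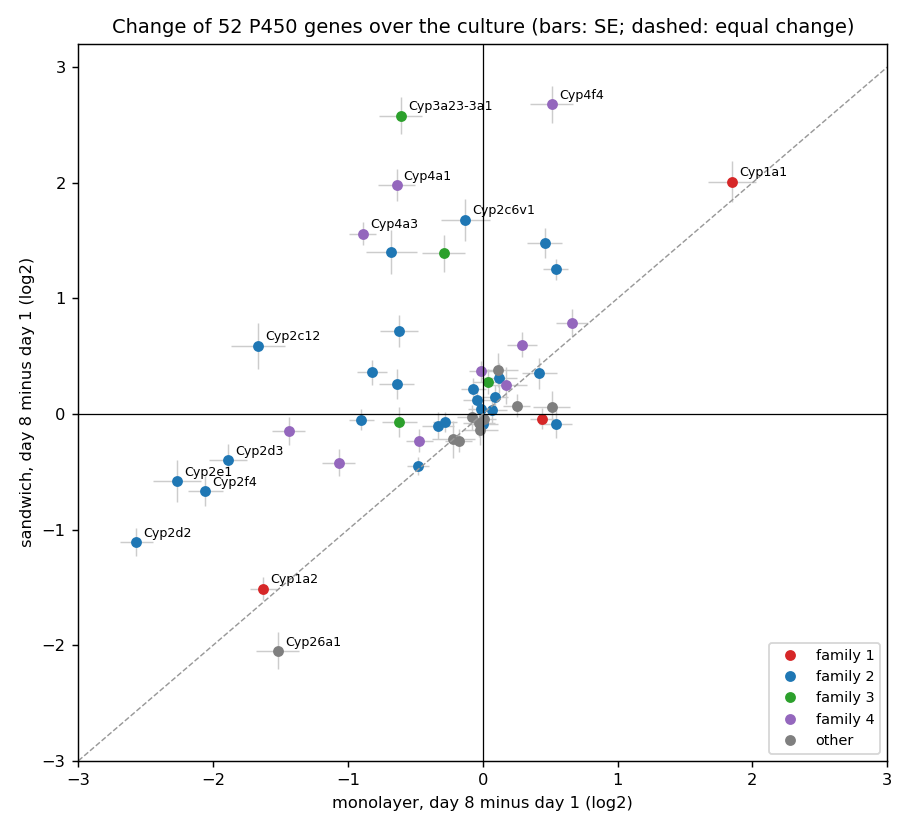
Day 8 minus day 1 change (log2) of each of the 52 P450 genes in the monolayer (horizontal axis) and the sandwich (vertical axis), coloured by family, with SE bars and a dashed line of equal change. Cyp3a23-3a1, Cyp4a1 and Cyp4a3 lie left of 0 and above it, Cyp2d2 and Cyp2e1 far to the left below 0 and above the line, and Cyp1a1 and Cyp1a2 near the line.

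Genes that serve the P450s were read from lists, to be set against the 36.3% of all genes called at day 8 (15.6% higher and 20.7% lower). Of 9 electron donors and membrane partners, 7 were measured, and 4 were higher and 1 lower in the day 8 sandwich (median 0.30). Por read 9.11, 9.19 and 9.19 in the monolayer and 10.61, 10.63 and 10.34 in the sandwich, 1.36 ± 0.12 apart with no overlap (adjusted p = 1.803e-09). Cyb5b, a cytochrome b5 of the outer mitochondrial membrane, differed by 1.13 ± 0.09 and Cyb5a, that of the endoplasmic reticulum, by 0.47 ± 0.10. Fdx1, the ferredoxin of mitochondrial P450s, was lower (-0.47 ± 0.11). Of 12 genes of heme synthesis and breakdown, 11 were measured, 3 higher and 2 lower. Alas1, the first enzyme of heme synthesis, differed by 0.80 ± 0.09, and Hmox1, which breaks heme down, by -0.47 ± 0.13.

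Of 30 receptors and factors that control P450 genes, 29 were measured, 15 higher and 4 lower in the day 8 sandwich (median 0.41). CAR, encoded by Nr1i3, read 4.59, 5.07 and 5.13 in the monolayer and 6.76, 7.21 and 6.19 in the sandwich (1.79 ± 0.19). PXR, encoded by Nr1i2, read 7.78, 8.09 and 8.10 and 8.73, 9.02 and 8.86 (0.88 ± 0.10). Neither pair overlapped, and the monolayer values of Nr1i3 lay below the dim mark. The retinoic acid receptor gene Rarb differed by 2.02 ± 0.10 and the clock-controlled factor Dbp by 1.39 ± 0.11. The Ppara group means lay below the dim mark in both day 8 cultures and differed by 0.49 ± 0.10. Ahr was lower in the sandwich at day 8 (-0.33 ± 0.09) and already at day 1 (-0.49 ± 0.09, adjusted p = 0.00186).

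**Figure D5:**
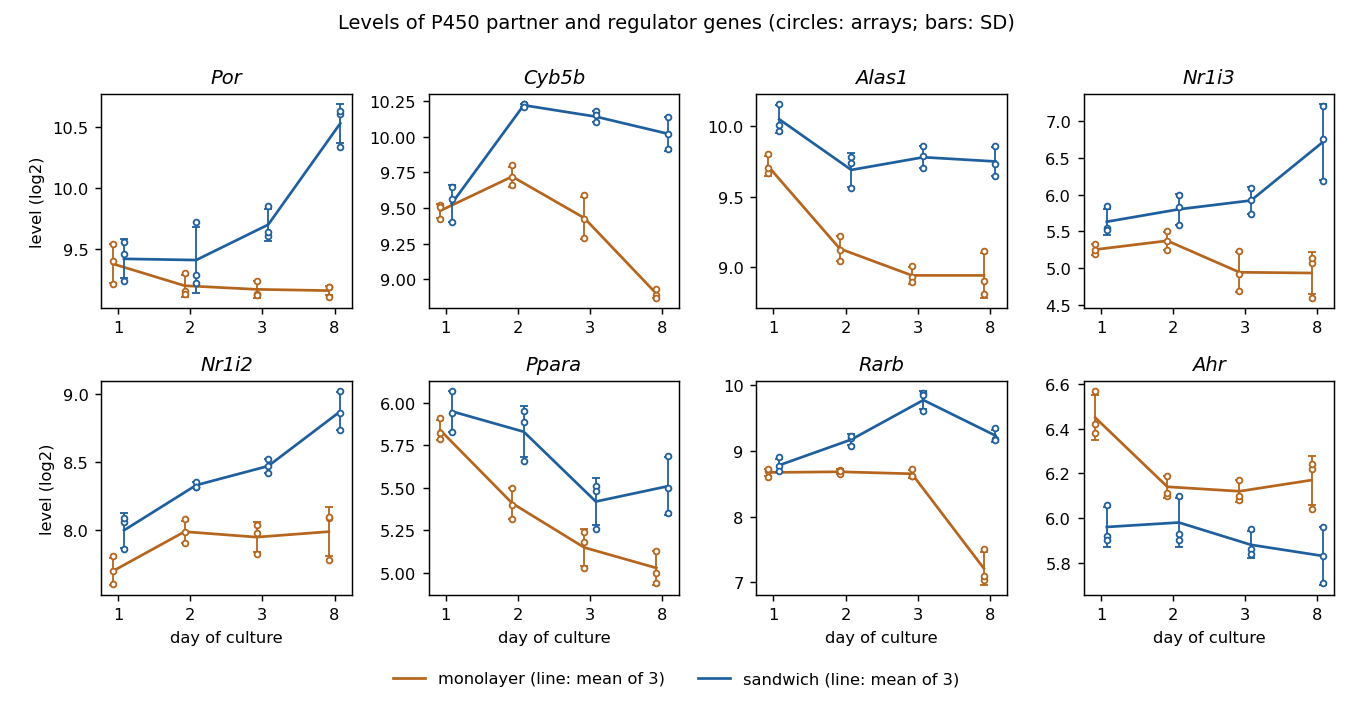
Levels (log2, vertical axis) of 8 partner and regulator genes on each array by day of culture (horizontal axis, days not to scale), with circles for arrays, lines for means of 3 and bars for SD, monolayer in brown and sandwich in blue. At day 8 the sandwich lies above the monolayer for Por, Cyb5b, Alas1, Nr1i3, Nr1i2, Ppara and Rarb and below it for Ahr.

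Other known targets of the same receptors were counted too, against the same 36.3% of all genes called. Of 12 PPAR-alpha targets 9 were measured, 8 higher and 0 lower in the day 8 sandwich. Pdk4, which restrains glucose oxidation, differed by 3.84 ± 0.18 and Fabp1, a fatty acid carrier, by 3.46 ± 0.18. Of 10 PXR or CAR targets 7 were measured, 5 higher and 2 lower. The glucuronosyltransferase gene Ugt2b1 differed by 4.58 ± 0.12, while the aldehyde dehydrogenase gene Aldh1a1 (-1.55 ± 0.09) and the bile pump gene Abcc2 (-0.99 ± 0.10) were lower. Of 5 AHR targets 4 were measured and 1, Tiparp, was higher (0.58 ± 0.09). Of 9 genes known to differ between male and female rat liver 6 were measured, 4 higher and 0 lower, among them the sulfotransferase gene Sult2a2 (3.47 ± 0.26).

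Some markers of cell types differed between the day 8 cultures, when 36.3% of all genes were called (15.6% higher and 20.7% lower). The mean level per array over the 7 hepatocyte markers was 12.88 to 13.13 in the monolayer and 13.44 to 13.53 in the sandwich, with 5 of 7 called higher. Over 5 of 7 bile duct markers it was 6.97 to 7.01 and 5.60 to 5.81. Krt19 (-3.19 ± 0.11) and Krt7 (-3.22 ± 0.15) were lower in the sandwich, and the other 3 were not called. Monolayer and sandwich means of those 3 were 9.59 and 9.35 for Epcam, 5.95 and 6.10 for Spp1 and 4.23 and 4.19 for Cftr. The 11 stellate cell and fibroblast markers gave 5.88 to 6.06 and 5.53 to 5.89, ranges that overlap. Of them 0 were higher, 8 not called and 3 lower, against 20.7% of all genes lower. The lower ones were Col1a2 (-0.90 ± 0.28), Col3a1 (-0.88 ± 0.22) and Reln (-0.55 ± 0.12). Pdgfra, Lrat, Dcn and Lum lay below 5.62 in every group. Over 10 of 11 macrophage markers the day 8 ranges were 6.95 to 7.13 and 6.88 to 7.13, with 1 higher, 2 lower and 7 not called. At day 3 they were 6.48 to 6.53 and 7.07 to 7.16, and 9 of 10 were called higher in the sandwich (10.9% of all genes). Of 8 endothelial markers measured 7, and of 8 lymphocyte markers 8, lay below 5.62 in every group, with day 8 ranges of 4.11 to 4.24 and 4.51 to 4.63 for the former and 4.62 to 4.74 and 4.65 to 4.82 for the latter. Of the endothelial markers 2 were higher in the sandwich, 0 lower and 6 not called. Fcgr2b (2.38 ± 0.18), of sinusoidal endothelium, was among those higher, with group means of 4.44 in the monolayer and 6.83 in the sandwich. Of the lymphocyte markers 1 was higher and 7 were not called. The part of these shifts in the P450 differences was not tested.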

How the data were processed

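Total RNA for the 24 samples was labelled with biotin and hybridised to 1-colour Affymetrix arrays, per the labels' protocols. The authors deposited 1 log2 value per probe set and array. RMA and limma are named in the submitters' processing notes, with neither role nor version, and the genome build is not given in the sources used here. Of 31099 probe sets, 57 controls were left out and 31042 tested.

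One mean per group was fitted with limma 3.58.1 (lmFit, eBayes) in R 4.3.3 to all 24 arrays, after being tested on simulated data. P-values are two-sided and adjusted by Benjamini-Hochberg within each comparison. The number of arrays limits the precision.

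Genes named with values were the 5 largest rises and falls per comparison among called genes without overlap, the 4 with the smallest F-test p per family, and a list of well-known P450s. For each partner list the 3 smallest adjusted p were planned, but fewer genes are given for some lists. Others were chosen after their values were seen. Members and lists were chosen with earlier results of these data known. Same-numbered replicates of the cultures deviated together in 6 of 12 pairs (r over 0.1) and not in the others. This leaves the pairing unsettled, and the main fit did not take numbers as pairs. Alternatives changed normalization, dim filter, probe set, spread, replicate block and arrays fitted.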

Additional observations from a re-analysis of the deposited data

Results flagged for a closer look

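Between the cultures, the change from day 1 to day 8 differed in 22 of the 52 P450 genes. The test was limma's, of the difference itself (adjusted p under 0.05), and it called 21.8% of all genes (11.3% higher and 10.5% lower). Values are sandwich change minus monolayer change on the log2 scale. The widest differences were 3.19 for Cyp3a23-3a1, 2.62 for Cyp4a1, 2.44 for Cyp4a3, 2.26 for Cyp2c12 and 2.17 for Cyp4f4. Next came 2.08 for Cyp2c7, 1.81 for Cyp2c6v1, 1.69 for Cyp2e1, 1.68 for Cyp3a18 and 1.49 for Cyp2d3. Smaller ones were 1.46 for Cyp2d2, 1.39 for Cyp2f4, 1.34 for Cyp2c23, 1.30 for Cyp4f1 and 1.18 for Cyp2j3. The least were 1.02 for Cyp2b3, 0.90 for Cyp2a1, 0.85 for Cyp2c22, 0.71 for Cyp2j4 and 0.65 for Cyp4b1. Cyp4b1 was lower in the sandwich at day 1 (-0.61), and at day 8 no culture difference was called for it. The difference ran the other way at -0.48 for Cyp1b1 and -0.62 for Cyp2u1. Of the 22 calls, that of Cyp2u1 ended in 1 of 21 alternatives (adjusted p = 0.0534 without sandwich day 8 replicate 2). In 17 of the 22 genes, Cyp3a23-3a1, Cyp4a1 and Cyp4a3 among them, monolayer day 8 replicate 3 was the lowest array of its group. This held for 28.84% of all genes. The 22 were called on a contrast that uses this array, so the count is a description only. None of the 22 calls ended without that array. Groups of 3 arrays were not screened for single outlying arrays.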

How the results depend on the processing

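Counts of P450 calls moved by over 1.5 times only at days 1 and 2 of the culture comparison. The day 1 count of 1 was 2 with dim probe sets left out, with the replicate block and with array weights, and the day 2 count of 10 was 6 with only the groups of the comparison. Leaving out each array in turn, the counts ran 0 to 2, 5 to 11, 18 to 21 and 24 to 27 at days 1, 2, 3 and 8 of the culture comparison. For days 2, 3 and 8 against day 1 they ran 8 to 11, 15 to 19 and 27 to 30 in the monolayer and 11 to 13, 17 to 20 and 21 to 24 in the sandwich, and 21 to 23 for the difference of changes. Same-numbered arrays of both cultures correlated over 0.1 in 6 of 12 pairs (-0.433 to 0.423), including all 3 pairs at day 8. Over all groups the mean was 0.181 for the same number. That for other numbers, -0.091, largely follows from it, because deviations from a group mean cancel within the group. The pairing is not settled, and the numbers were not used as pairs. With the replicate number as a block the counts were 2, 11, 21 and 30 for the culture comparison, 11, 24 and 33 for the monolayer, 15, 21 and 27 for the sandwich and 24 for the difference of changes. Named genes that gained a call with the replicate block were Cyp26a1 at day 1 (0.57, limma adjusted p = 0.04727), Cyp4a1 at day 2 (0.44, 0.02827), Cyp11a1 at day 8 (-0.32, 0.04223) and Cyp2c11 in the sandwich from day 1 to day 8 (0.35, 0.02716). Other scalings moved the median of all genes to between -0.07 and 0.04. Of 99 called values of named genes, 74 were called under every alternative, 25 lost the call under at least 1 and none changed sign. Sign changes occurred in 79 of 2952 values, none past the threshold in either setting, and the cause was not tested. The depth of single probe sets is unknown.

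Values whose sign changed follow, on the log2 scale. Quantile normalization gave 0.03 for Cyp2d2 (day 1 culture difference), 0.00 for Cyp2c22 (day 1 culture difference), -0.01 for Cyp27b1 (day 1 culture difference), 0.01 for Cyp46a1 (day 3 culture difference) and 0.05 for Cyp2c11 (day 8 culture difference). Centring arrays on their medians gave -0.00 for Cyp1a2 (day 1 culture difference), -0.01 for Cyp27b1 (day 1 culture difference), 0.03 for Cyp2c11 (day 8 culture difference) and -0.03 for Cyp3a2 (monolayer day 8 change). The mean of all probe sets gave 0.03 for Cyp2j3 (day 1 culture difference) and -0.06 for Cyp2j3 (day 3 culture difference). Array weights gave -0.04 for Cyp3a2 (day 1 culture difference), -0.05 for Cyp1a2 (day 2 culture difference), -0.03 for Cyp2u1 (day 3 culture difference), -0.03 for Cyp2c11 (day 3 culture difference) and -0.01 for Cyp4b1 (day 8 culture difference). With single arrays left out, the day 1 culture difference ran from -0.08 to 0.00 for Cyp2d2, -0.21 to 0.09 for Cyp4a1, -0.03 to 0.07 for Cyp27b1, -0.08 to 0.07 for Cyp3a18, -0.05 to 0.05 for Cyp2c22 and -0.01 to 0.35 for Cyp11a1. It ran from -0.13 to 0.01 for Cyp2j4, -0.02 to 0.10 for Cyp1a2, -0.04 to 0.12 for Cyp3a2, -0.00 to 0.16 for Cyp2a1, -0.15 to 0.00 for Cyp3a9 and -0.02 to 0.22 for Cyp4f5. There, it ran from -0.06 to 0.21 for Cyp46a1 and -0.03 to 0.11 for Cyp4f1. With single arrays left out, the day 2 culture difference ran from -0.36 to 0.06 for Cyp2e1, -0.01 to 0.38 for Cyp1a1, -0.01 to 0.13 for Cyp26a1, -0.01 to 0.09 for Cyp11a1, -0.06 to 0.00 for Cyp2c22 and -0.01 to 0.11 for Cyp2j4. It ran from -0.04 to 0.21 for Cyp2c12, -0.02 to 0.26 for Cyp2u1 and -0.01 to 0.27 for Cyp4f4. With single arrays left out, the day 3 culture difference ran from -0.06 to 0.09 for Cyp2u1, -0.13 to 0.12 for Cyp2c11, -0.12 to 0.08 for Cyp46a1 and -0.02 to 0.15 for Cyp2j3. With single arrays left out, the day 8 culture difference ran from -0.06 to 0.12 for Cyp4b1, -0.14 to 0.08 for Cyp2c11, -0.08 to 0.14 for Cyp26a1 and -0.05 to 0.28 for Cyp39a1. With single arrays left out, the monolayer day 8 change ran from -0.03 to 0.12 for Cyp3a2, -0.05 to 0.01 for Cyp46a1 and -0.32 to 0.18 for Cyp2c6v1. With single arrays left out, the sandwich day 8 change ran from -0.15 to 0.06 for Cyp3a9, -0.18 to 0.09 for Cyp46a1, -0.08 to 0.02 for Cyp27b1, -0.10 to 0.02 for Cyp2c22 and -0.23 to 0.02 for Cyp2u1.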

Other observations

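Second probe sets of a gene did not always give the same value as the brighter one used. Cyp26b1, which like Cyp26a1 breaks down retinoic acid, differed between the day 8 cultures by -0.00 on the probe set used (adjusted p = 0.985) and by -0.55 on a dimmer one (adjusted p = 0.001067, limma). Cyp4v3, a fatty acid hydroxylase, changed in the monolayer from day 1 to day 8 by -0.01 on the one used and by 0.38 on the other (adjusted p = 0.007851). Cyp2d4 changed there by -0.28 (adjusted p = 0.01771) and by 0.10 (adjusted p = 0.7284). Which transcripts each probe set reads was not tested.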
